A study of Mus musculus with 2 samples.

Results

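The C/EBP family genes were examined through the open chromatin at their promoters and within 100 kb of their starts in mouse hematopoietic stem cells. The 5 genes Cebpa, Cebpb, Cebpg, Cebpd and Cebpe were taken by name from 21853 protein-coding genes. C/EBP proteins are basic leucine zipper transcription factors that bind DNA as dimers with each other or with related zipper proteins. In blood, C/EBPα is required for stem and progenitor cells to form granulocytes and monocytes and restrains stem cell cycling, C/EBPβ drives granulocyte production under infection, and C/EBPε acts late in granulocyte maturation. C/EBPδ is a stress-responsive member that restrains growth in several tissues, and C/EBPγ lacks the activation domains of the others and works as their dimer partner.

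Accessibility was profiled by ATAC-seq, in which the Tn5 transposase inserts adapters into accessible DNA and clusters of insertions are called as peaks. There was a single group, primary hematopoietic stem cells of male adult C57BL/6J mice 5 to 6 weeks old, with 2 libraries of 50000 cells each, called replicate 1 and replicate 2. No genotype change or treatment is named in the labels, and they do not say by which surface markers the cells were isolated. The libraries have separate biosamples but 1 donor identifier between them, and the labels do not say if they are from different animals. With 2 replicates both values are printed in place of a mean and SD.

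The main lists were the peaks of each replicate that passed the authors' threshold on the irreproducible discovery rate (IDR), a measure of how reproducible the rank of a peak is. They held 25141 intervals in replicate 1 and 24495 in replicate 2, with median signal values of 8.57 and 9.64. The longer, less strict lists held 62918 and 64843 intervals. A signal value is the strength the authors' peak caller gave a peak, and its percentile is the percent of intervals in the same list with a lower value. Over all protein-coding genes, 41.3% had a promoter peak in both thresholded lists and 58.0% in both less strict lists. Promoter peaks were found in both thresholded lists for 4 of 7 stem cell markers, Kit, Cd34, Hlf and Meis1. The other stem cell markers, Mecom, Procr and Slamf1, had none in either thresholded list. None of 7 myeloid markers, Mpo and Elane among them, had one in both lists, although Lyz2 had one in replicate 2. Promoter peaks in both lists were found for none of 3 T cell and 3 erythroid markers, for 1 of 3 B cell markers (Pax5) and for 1 of 3 stromal and endothelial markers (Col1a1). In the less strict lists the counts were 6 of 7 for stem cell, 4 of 7 for myeloid, 3 of 3 for stromal and endothelial and 1 of 3 for B cell markers. There were none for T cell and erythroid markers. The part of other cells in any peak was not tested. Peak lists carry no read counts, so the depth is unknown, and a gene without a peak is described as having none called at this threshold.

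Cebpa, Cebpg and Cebpd had an open promoter in both replicates, and Cebpb and Cebpe did not. A promoter was counted as open when each replicate had a peak within 1000 bp of an annotated start of the gene. By this rule 3 of the 5 C/EBP promoters were open, against 41.3% of all protein-coding genes. The less strict lists gave the same 3 genes, against 58.0% of all genes. Among the 9030 genes with an open promoter, the median signal of the strongest promoter peak was 10.3 in replicate 1 and 10.9 in replicate 2. Cebpg stood below that median in replicate 1 and above it in replicate 2, and Cebpa and Cebpd stood below it in both. With the strongest 50% of peaks in each list, 1 of the 5 promoters was open, that of Cebpg, against 25.6% of all genes.

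**Figure D1:**
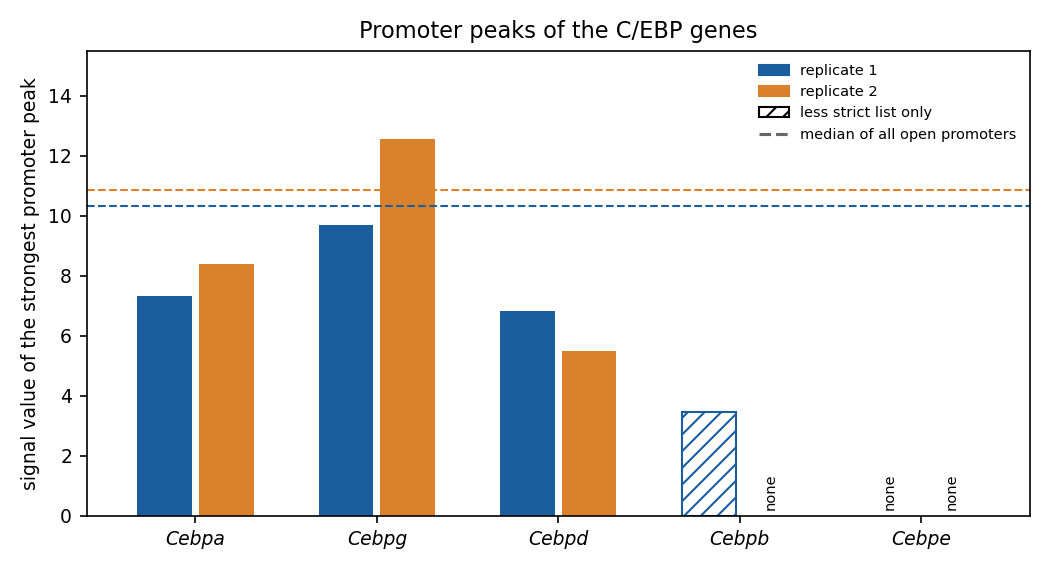
Signal value of the strongest promoter peak of each C/EBP gene in replicate 1 and replicate 2; hatched bars are peaks in the less strict lists only, "none" marks no peak in either kind of list, and dashed lines are the medians over all open promoters of the same replicate (10.3 and 10.9). Cebpg has the highest bars (9.69 and 12.6), Cebpa and Cebpd lie below both medians, and Cebpb has a single hatched bar of 3.45.

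The promoter sequences of Cebpa, Cebpg and Cebpb are shown because they range from the strongest promoter peak of the family to none at the threshold, while all of them start in CpG-rich DNA. They come from RefSeq promoters of GRCm38.p6, the sequence of mm10, where 3 of the 5 genes were matched; Cebpd and Cebpe were not. Each is the 200 bases that end just before the RefSeq start, 5′ to 3′ on the strand of the gene, with matched letters in capitals.
Cebpa, chr7:35119093-35119292, plus strand: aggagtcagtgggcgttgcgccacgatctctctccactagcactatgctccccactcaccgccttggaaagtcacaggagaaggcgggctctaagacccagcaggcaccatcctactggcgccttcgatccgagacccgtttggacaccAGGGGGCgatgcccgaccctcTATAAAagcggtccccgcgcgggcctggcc
Cebpg, chr7:35056567-35056766, minus strand: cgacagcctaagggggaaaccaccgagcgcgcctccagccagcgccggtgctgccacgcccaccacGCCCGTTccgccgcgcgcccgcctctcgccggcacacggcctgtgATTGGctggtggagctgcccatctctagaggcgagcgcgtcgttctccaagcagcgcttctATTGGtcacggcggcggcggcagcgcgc
Cebpb, chr2:167688715-167688914, plus strand: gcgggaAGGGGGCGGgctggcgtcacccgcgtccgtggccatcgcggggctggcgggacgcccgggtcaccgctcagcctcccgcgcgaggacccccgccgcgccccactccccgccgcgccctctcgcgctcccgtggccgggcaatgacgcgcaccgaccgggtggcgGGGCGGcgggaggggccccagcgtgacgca
In Cebpa the capitals mark the TATA box letters TATAAA and the core letters of the CTCF motif, AGGNGGC. In Cebpg they mark the CCAAT box and 1 match to the MYB letters AACNGNC. In Cebpb they mark the CTCF core, overlapped by a GC box with the letters GGGCGG, and a further GC box. Both strands were searched, so a match can read as its reverse complement. Over the whole RefSeq promoters, which reach further in both directions, Cebpb held 5 GC boxes, Cebpg 1 and Cebpa none, and Cebpg held 2 CCAAT boxes. Of all 32851 RefSeq promoters of that length, 35.7% held a GC box, 37.4% a CCAAT box, 13.6% a TATA box and 29.4% the CTCF core letters. A match of letters is a description of the sequence and not a binding site.

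Cebpa encodes the founding member of the family and lies at chr7:35119293-35121928 on the plus strand of mm10 (ENSMUSG00000034957.10). Its promoter peak spanned chr7:35118913-35119383 in replicate 1 and chr7:35118941-35119482 in replicate 2. The summits lay 96 and 93 bp upstream of the start, so the replicates placed them almost at the same base, within the annotated intron of the noncoding gene Gm45091. The signal was 7.32 in replicate 1 and 8.39 in replicate 2, at the 28.7 and 30.2 percentiles of all peaks. Of all open promoters, 11.8% and 18.0% were weaker. In the less strict lists Cebpa had a further promoter peak 726 bp (4.79) and 716 bp (3.98) upstream of the start.

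Cebpg, the gene of the dimer partner C/EBPγ, lies at chr7:35046422-35056573 on the minus strand (ENSMUSG00000056216.9) and carried the strongest promoter peak of the family. The peak spanned chr7:35056380-35056879 in replicate 1 and chr7:35056391-35056874 in replicate 2, with summits 69 and 59 bp upstream of the most 5′ start. The signal was 9.69 in replicate 1 and 12.6 in replicate 2, at the 64.8 and 82.5 percentiles. The replicates differed in its rank: 41.3% of open promoters were weaker in replicate 1 and 70.7% in replicate 2. A second, weaker promoter peak stood in both less strict lists, 726 bp (4.59) and 703 bp (4.66) upstream.

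Cebpd lies at chr16:15887286-15891031 on the plus strand (ENSMUSG00000071637.5) and is annotated with 1 exon. Its promoter peak spanned chr16:15886579-15887358 in replicate 1 and chr16:15886572-15887312 in replicate 2, with summits 103 and 116 bp upstream of the start. The signal was 6.82 in replicate 1 and 5.51 in replicate 2. This was the weakest of the open C/EBP promoters, at the 20.2 percentile of all peaks in replicate 1 and the 1.82 percentile in replicate 2. Of all open promoters, 7.31% and 0.620% were weaker. Its −log10 IDR of 1.41 in replicate 2 lay just above the lowest value of that list, 1.30.

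Cebpb, the gene of the infection-responsive C/EBPβ, lies at chr2:167688915-167690418 on the plus strand (ENSMUSG00000056501.3) with 1 annotated exon. Neither thresholded list held a peak at its promoter. Replicate 1 had a weak one in its less strict list, at chr2:167688863-167689152 with a summit 66 bp downstream of the start and a signal of 3.45, the 10.7 percentile of that list. Its −log10 IDR of 0.403 was below the threshold, and in replicate 2 no promoter summit appeared even in the ranked list from which the thresholded peaks were taken. Cebpe, the granulocyte maturation factor, lies at chr14:54710360-54712174 on the minus strand (ENSMUSG00000052435.7). No promoter peak was listed for Cebpe in either replicate in the thresholded, the less strict or the ranked lists.

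CpG content differed between the promoters without a peak. The observed to expected CpG ratio within 1000 bp either side of the most 5′ start was 0.909 at Cebpb, higher than at 98.1% of all genes, and 0.305 at Cebpe, against a median of 0.478 over all genes. Cebpa (0.876), Cebpg (0.836) and Cebpd (0.837) were CpG-rich like Cebpb. Of the 10% of genes with the highest ratio, 63.2% had an open promoter. Cebpb belonged to the rest of that class.

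Away from promoters the family ranged from among the most to among the fewest distal peaks of any gene. A distal peak had its summit over 1000 bp from every protein-coding start and within 100 kb of a start of the gene, and was counted when replicate 1 peaks overlapped a replicate 2 peak. Cebpb had 10, Cebpa and Cebpg 5 each, Cebpe 2 and Cebpd 0. Over all protein-coding genes the mean was 1.36 (SD 1.54), the median 1 and the highest 15, and 37.5% of genes had none. Cebpb had more than 99.9% of genes, being 1 of 16 genes with at least 10. Of these 16 genes, 7 had an open promoter, against 41.3% of all genes, and Cebpb was among the other 9. Cebpa and Cebpg had more distal peaks than 95.5% of genes, and Cebpe more than 63.3%. Peaks within 100 kb of both Cebpa and Cebpg count for each, so the 22 counts stood for 18 separate regions. A peak also counts for any other gene with a start within 100 kb of it. Around Cebpb there are 3 such protein-coding genes within 100 kb, Ube2v1, Gm20431 and Tmem189. Of the 13 distal regions of Cebpb found in either replicate, 8 had its start as the nearest.

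**Figure D2:**
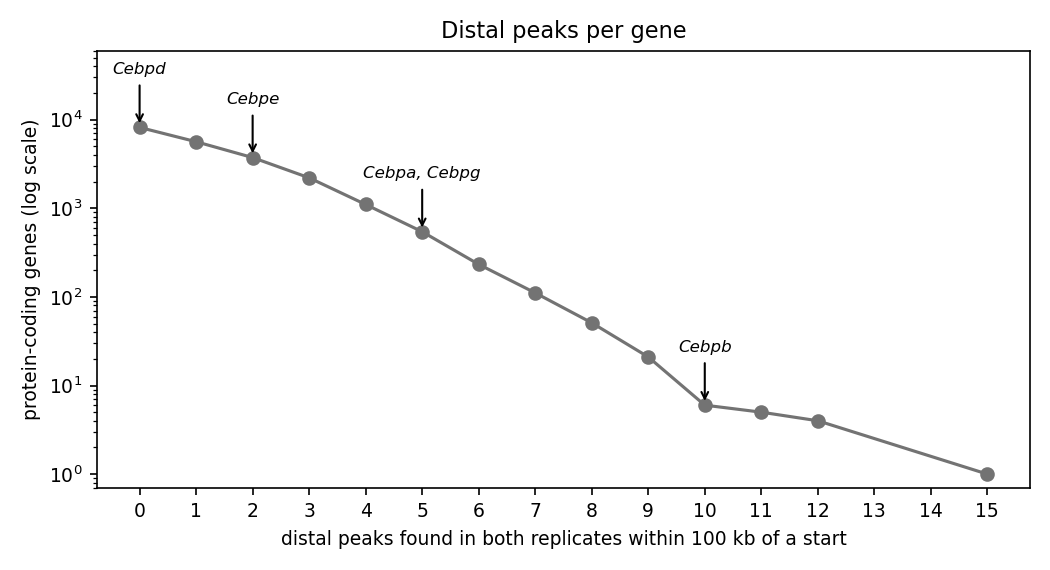
Number of protein-coding genes (log scale) by the number of distal peaks found in both replicates within 100 kb; arrows mark the C/EBP genes. Cebpb, with 10, lies in the thin tail of 16 genes, Cebpa and Cebpg sit at 5, Cebpe at 2 and Cebpd at 0, where 8186 genes stand.

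The count for each replicate alone was close to the shared count. Cebpb had 12 in replicate 1 and 11 in replicate 2, Cebpa 6 and 5, Cebpg 7 and 5, Cebpe 2 and 3, and Cebpd 0 and 1. Within 50 kb of the start Cebpb and Cebpa had 4 each, Cebpg 3, Cebpe 1 and Cebpd 0, against a mean of 0.717 over all genes, so most of the Cebpb peaks lay farther out. In the less strict lists Cebpb had 15, Cebpa 11, Cebpg 10, and Cebpd and Cebpe 4 each, against a median of 4. Cebpd and Cebpe thus stood at the median of all genes there.

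These distal regions were of middling to low strength. The 18 regions had a median signal of 7.98 in replicate 1 and 8.38 in replicate 2, against 8.71 and 9.89 over all shared distal peaks. The highest value was 10.5 in replicate 1 and 11.2 in replicate 2, both in the 100 kb window of Cebpb. With the strongest 50% of peaks in each list the 22 counts came to 3. Cebpa, Cebpb and Cebpg then had 1 each and Cebpd and Cebpe 0, against a mean of 0.528 over all genes. Of 35 thresholded regions around the 5 genes, promoters of neighbours included, 27 were found in both replicates, 5 in replicate 1 and 3 in replicate 2 alone. Of those 8, 7 were present in the less strict list of the other replicate. The summits of the 27 regions were a median of 13 bp apart between replicates.

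Cebpa and Cebpg lie head to head, with their starts 62.7 kb apart, so that their 100 kb windows overlap over much of their length. Of 11 thresholded regions within 100 kb of either gene, 6 lay within 100 kb of both, 2 near Cebpa only and 3 near Cebpg only. Each of the 6 common regions was found in both replicates. Besides the pair of promoters, 4 of them were distal. The less strict lists raised the total to 23 regions, 16 of them common to both genes and 12 of these found in both replicates.

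**Figure D3:**
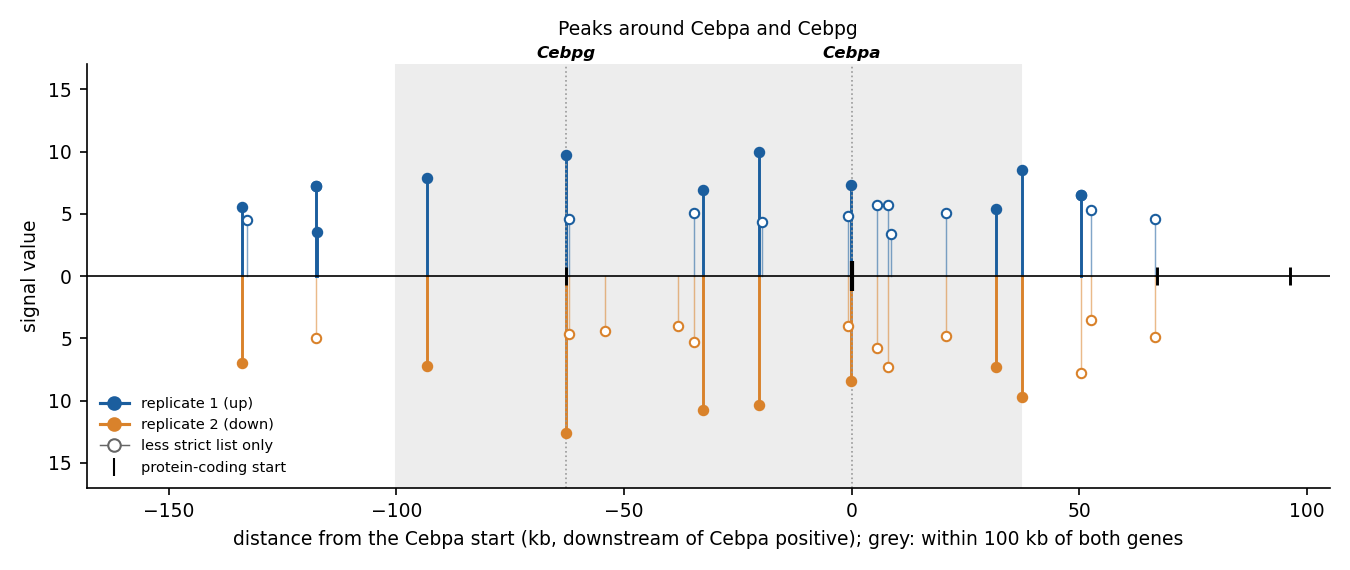
Peaks around Cebpa and Cebpg by distance from the Cebpa start (kb) and signal value, replicate 1 upward and replicate 2 downward; filled points are in the thresholded lists, open points in the less strict lists only, black ticks are protein-coding starts and the grey band is within 100 kb of both genes. The 6 common regions carry filled points in both replicates, and the region 37.5 kb downstream of Cebpa falls at the edge of the band.

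Among the common distal regions the strongest in replicate 1 was chr7:35098574-35099162, intergenic, 20.3 kb upstream of Cebpa and 42.4 kb upstream of Cebpg. Its signal was 9.97 in replicate 1 and 10.4 in replicate 2, above the promoter peak of Cebpa in each. The strongest in replicate 2 was chr7:35086555-35086897, with 6.92 in replicate 1 and 10.7 in replicate 2. It lay almost midway between the genes, 32.5 kb upstream of Cebpa and 30.2 kb upstream of Cebpg. Its percentiles of 21.6 and 65.1 made it the least even of these regions between replicates. The other common regions were a peak in an intron of Pepd, the prolidase gene, and a peak downstream of Cebpa. The Pepd peak, chr7:35025903-35026281, had 7.85 and 7.23 and lay 29.8 kb downstream of the Cebpg start and 93.2 kb upstream of Cebpa. The other, chr7:35150817-35151245, had 5.37 and 7.29, 31.8 kb downstream of Cebpa and 94.5 kb upstream of Cebpg.

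A region 37.5 kb downstream of Cebpa was open in both replicates and lay just outside the Cebpg window. An element at about this distance is known as an enhancer of Cebpa in mouse blood progenitors, bound by RUNX1, ETS family proteins, SCL and C/EBP proteins. The region spanned chr7:35156310-35157059 and was the widest distal region of Cebpa. Its signal was 8.50 in replicate 1 and 9.72 in replicate 2, at the 48.9 and 51.6 percentiles, above the promoter peak of Cebpa. Its −log10 IDR was 2.20 and 2.37. The nearest protein-coding start was that of Slc7a10, 29.6 kb further on. The Slc7a10 promoter was called in the less strict but not the thresholded list of each replicate.

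The sequences of this region and of the region 20.3 kb upstream of Cebpa are shown, the first for the known enhancer and the second as the strongest distal peak of the gene in replicate 1. They are the plus strand of mm10, with capitals where either strand holds the ETS letters GGAAGT, the RUNX letters TGTGGT, the E-box letters CAGNTG or the GC box GGGCGG.
Downstream element, chr7:35156600-35156898: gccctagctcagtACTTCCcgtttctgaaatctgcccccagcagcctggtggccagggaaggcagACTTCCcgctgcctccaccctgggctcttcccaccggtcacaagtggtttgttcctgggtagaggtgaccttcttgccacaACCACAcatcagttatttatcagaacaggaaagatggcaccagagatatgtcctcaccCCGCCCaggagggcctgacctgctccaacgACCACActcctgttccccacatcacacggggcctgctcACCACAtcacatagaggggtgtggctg
Upstream element, chr7:35098852-35099052: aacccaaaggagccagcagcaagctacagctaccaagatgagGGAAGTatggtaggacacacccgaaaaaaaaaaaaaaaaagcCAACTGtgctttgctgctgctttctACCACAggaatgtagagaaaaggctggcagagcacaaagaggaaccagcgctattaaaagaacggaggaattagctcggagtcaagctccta
The downstream window covers the summits of both replicates, at 35156813 and 35156650, and held 3 RUNX and 2 ETS matches. At least 3 RUNX matches were held by 1.78% of windows of this length around the 11202 shared distal peaks of the genome, and at least 2 ETS matches by 10.5%. Those windows were each centred on 1 summit, while the one shown was set to take in both. Within 100 bases of the replicate 1 summit alone the element held 3 RUNX and no ETS matches, and within 100 bases of the replicate 2 summit 1 RUNX and 3 ETS matches. The C/EBP letters TTGCNNAA and the GATA letters AGATAA had no match in it. The upstream window, 100 bases either side of the replicate 1 summit, held 1 RUNX, 1 ETS and 1 E-box match. Each of these was common: 32.6%, 38.4% and 48.5% of such windows had them.

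Apart from the element 37.5 kb downstream of Cebpa, the regions near 1 gene only were weaker or found in 1 replicate. A region 50.3 kb downstream of Cebpa, chr7:35169456-35169724, passed the threshold in replicate 1 (6.52) and stood in the less strict list of replicate 2 (7.74). Of the 3 regions near Cebpg only, all in Pepd introns, chr7:34984432-34985609 was found in both replicates, 71.2 kb downstream, with 5.53 and 7.01. The other two, 54.9 kb and 54.7 kb downstream, were in the thresholded list of replicate 1 only, with 7.20 and 3.58. The second of them was the only thresholded region of the family that neither less strict list held. Among peaks of the less strict lists alone, the strongest beside Cebpa were close to the gene, 7.99 kb (5.68 and 7.30) and 5.65 kb (5.68 and 5.80) downstream of its start in intergenic sequence. Others in both replicates lay 34.6 kb upstream (5.09 and 5.33) and 20.7 kb downstream (5.09 and 4.84) of Cebpa.

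Around Cebpb 14 thresholded regions were found, 13 of them distal and 11 in both replicates. They spread over both sides, with 6 distal regions upstream and 7 downstream, and for 8 of the 13 the nearest protein-coding start was that of Cebpb. The promoter among the 14 belonged to Ube2v1, a ubiquitin-conjugating enzyme variant gene, 56.7 kb upstream (7.92 and 8.41). The promoters of the 2 other protein-coding genes within 100 kb, Tmem189 and Gm20431, had a peak in the less strict but not the thresholded list of each replicate.

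The closest thresholded distal regions of Cebpb lay on either side of the gene at similar distances. The downstream one, chr2:167697933-167698300, was 9.18 kb from the start in an intron of the noncoding gene A530013C23Rik, with 9.54 in replicate 1 and 11.2 in replicate 2. The upstream one, chr2:167679962-167680411, was 8.82 kb from the start in a Tmem189 intron, with 8.16 and 9.45. The downstream region was the strongest of the Cebpb regions in replicate 2, at the 70.6 percentile. In replicate 1 the strongest was the farthest upstream, chr2:167588739-167589801, 99.4 kb away in an intron of Gm11476, with 10.5 in replicate 1 and 8.60 in replicate 2. Its nearest protein-coding start was that of Ube2v1. At 1063 bp this region was also the widest around Cebpb.

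Downstream of Cebpb the regions formed a series out to 86.6 kb, each found in both replicates. They lay 35.0 kb (9.01 and 9.08), 52.1 kb (7.06 and 7.60), 65.3 kb (8.0 and 8.71), 71.3 kb (7.97 and 7.31) and 86.6 kb (6.87 and 7.29) from the start. The nearest protein-coding start to each of these was that of Cebpb. Upstream, regions in Gm20431 introns lay 54.3 kb (8.71 and 8.16) and 31.9 kb (7.12 and 7.14) away in both replicates. Their nearest protein-coding starts were those of Ube2v1 and Gm20431, in that order. Regions 83.5 kb upstream (7.08) and 89.1 kb downstream (4.86) passed the threshold in replicate 1 only, and 1 at 47.4 kb upstream (7.68) in replicate 2 only. All of these last regions were in the less strict list of the other replicate. Outside the thresholded lists, the distal peaks found in both replicates lay 3.59 kb upstream (3.89 and 5.94) and 38.4 kb downstream (3.77 and 5.93). Others were in 1 less strict list only, such as 39.5 kb upstream in replicate 1 (4.83) and 13.6 kb upstream in replicate 2 (5.14).

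**Figure D4:**
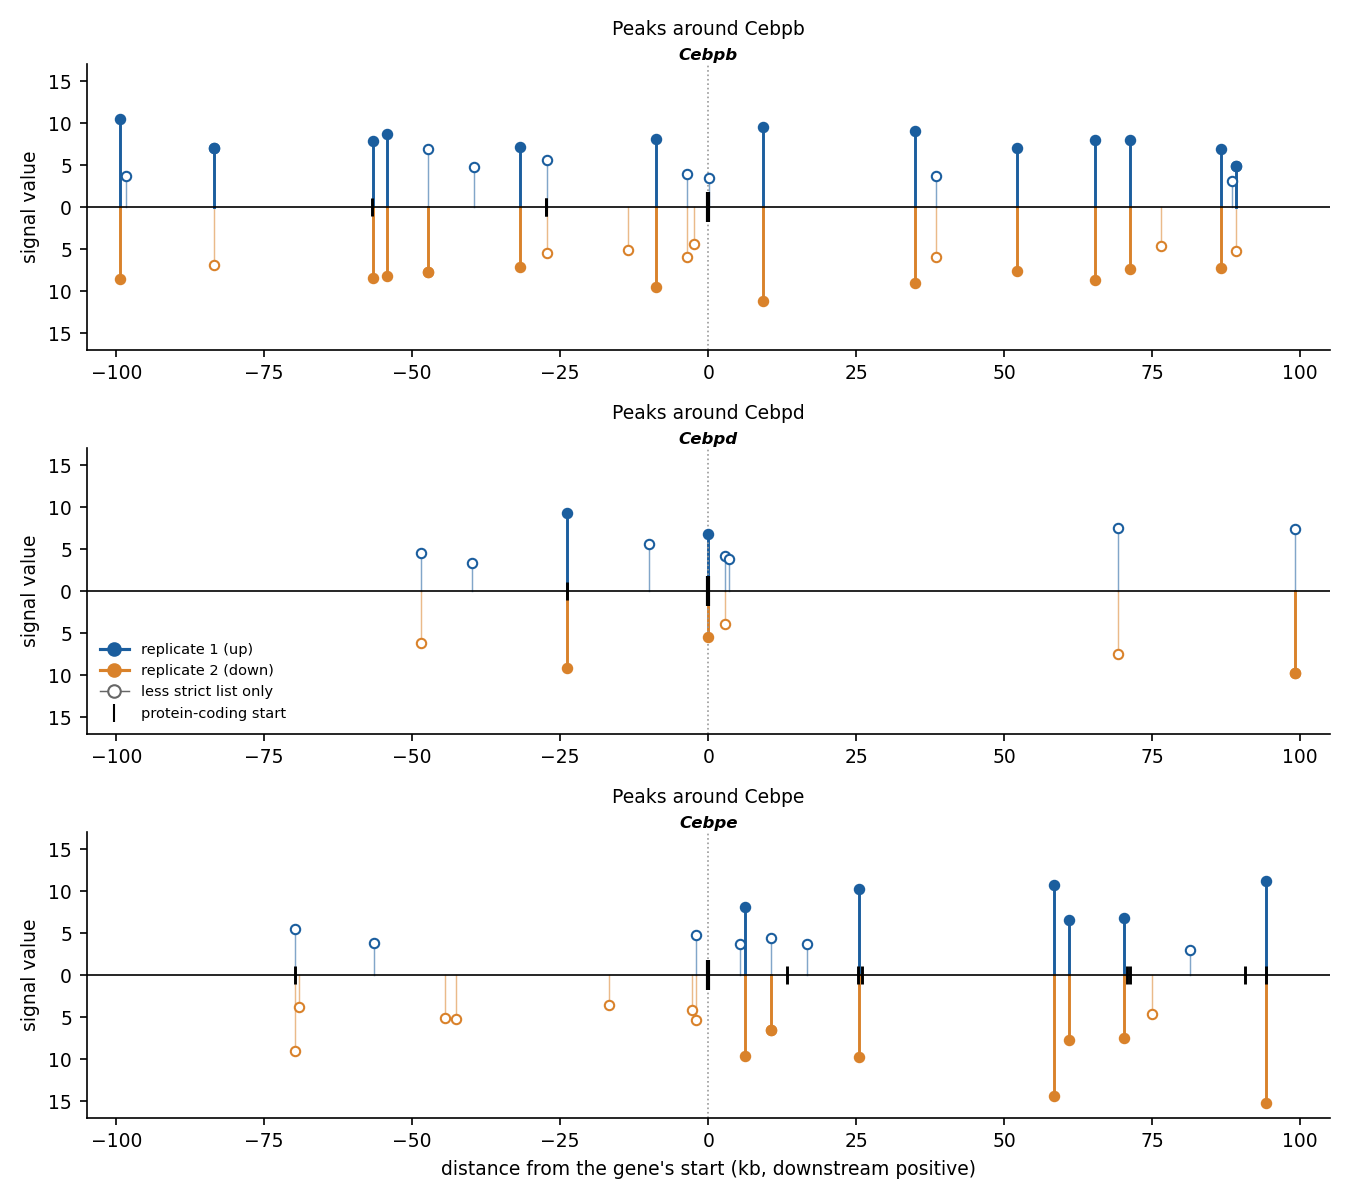
Peaks around Cebpb, Cebpd and Cebpe by distance from the start of each gene (kb, downstream positive) and signal value, replicate 1 upward and replicate 2 downward; filled points are in the thresholded lists, open points in the less strict lists only, and black ticks are protein-coding starts. Cebpb has filled points on both sides and none at its own start, Cebpd has filled points in both replicates only at its start and 23.9 kb upstream, and Cebpe has filled points only downstream.

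The nearest downstream region of Cebpb and the region 65.3 kb downstream are shown, the first as the strongest close region and the second because it held C/EBP letters within 50 bp of the replicate 1 summit. Capitals mark, on either strand, the AP-1 letters TGANTCA and the E-box CAGNTG in the first and the GC box GGGCGG and the C/EBP letters TTGCNNAA in the second. Both are the plus strand of mm10.
Nearest downstream region, chr2:167697996-167698196: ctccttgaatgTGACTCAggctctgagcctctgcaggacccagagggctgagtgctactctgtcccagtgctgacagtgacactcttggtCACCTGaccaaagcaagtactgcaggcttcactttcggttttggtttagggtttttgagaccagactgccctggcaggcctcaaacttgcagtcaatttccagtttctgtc
Far downstream region, chr2:167754150-167754250: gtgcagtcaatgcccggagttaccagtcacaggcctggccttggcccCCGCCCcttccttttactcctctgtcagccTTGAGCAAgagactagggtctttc
AP-1 letters were held by 10.5% of windows reaching 100 bases either side of shared distal summits. C/EBP letters were held by 4.64% of windows reaching 50 bases either side. At the replicate 2 summit of the far region no C/EBP letters were found. The region 71.3 kb downstream, not shown, held them within 50 bp of the replicate 2 summit and within 100 bp of either summit.

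Cebpd had the fewest distal peaks of the family. Its 3 thresholded regions were its own promoter, the promoter of Mzt2 23.9 kb upstream (9.36 and 9.18) and a peak 99.1 kb downstream in an intron of Spidr, a DNA repair gene. The Spidr peak, chr16:15986269-15986722, had 9.74 in replicate 2 and passed no threshold in replicate 1, where its less strict signal was 7.38. In the less strict lists a peak 69.3 kb downstream, also in a Spidr intron, had 7.56 and 7.47. A weak peak lay in the annotated exon of Cebpd, 2.86 kb from the start, with 4.20 and 3.86. The stronger regions of this window were at or in other genes.

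Cebpe had no promoter peak but an open region 6.14 kb downstream of its start. An element downstream of Cebpe has been described in mouse as an enhancer used in granulocyte development, which C/EBP proteins bind. The region, chr14:54705657-54706332, was intergenic, and its signal was 8.12 in replicate 1 and 9.60 in replicate 2, at the 42.7 and 49.4 percentiles. Cebpe was its nearest protein-coding gene. The other distal region found in both replicates, 60.9 kb downstream with 6.60 and 7.78, lay in an intron of Acin1, a splicing-associated gene. A peak 10.7 kb downstream passed the threshold in replicate 2 only (6.49), with 4.38 in the less strict list of replicate 1.

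The region beside Cebpe is shown because it held more C/EBP letters than any other distal region of the family. The window, 100 bases either side of the replicate 1 summit, is the plus strand of mm10, with capitals where either strand holds the C/EBP letters TTGCNNAA, the GATA letters AGATAA, the E-box CAGNTG or the MYB letters AACNGNC; the second C/EBP match overlaps an E-box and the last overlaps the MYB letters.
Cebpe region, chr14:54705932-54706132: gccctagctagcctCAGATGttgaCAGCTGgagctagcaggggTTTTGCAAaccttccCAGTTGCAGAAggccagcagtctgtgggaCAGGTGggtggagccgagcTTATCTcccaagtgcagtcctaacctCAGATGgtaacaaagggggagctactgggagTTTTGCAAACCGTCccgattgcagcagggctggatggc
It held 3 C/EBP, 1 GATA and 5 E-box matches. Of the 11202 windows of this length at shared distal peaks, 9.63% held C/EBP letters at all and 0.750% held at least 2 matches. At least 3 were held by 4 windows (0.0357%), this one among them. The region was picked for its number of matches, so these shares are no test of it. Around the replicate 2 summit the window of the same length held 2. At least 3 E-box matches were held by 2.84% of windows.

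Genes near Cebpe held the remaining regions of its window. Promoter peaks were found in both replicates at 5 of the 8 other protein-coding genes within 100 kb, against 41.3% of all genes. Among them were Psmb5, a proteasome subunit gene, with 11.2 and 15.2, and Acin1, with 10.8 and 14.4 at 1 start and 10.2 and 9.73 at another. The last peak also counted for the promoter of 1700123O20Rik. These peaks of Psmb5 and Acin1 were stronger than any distal region of Cebpe in the same replicate. The peak at the promoters of Cdh24 and Gm17606 was weaker (6.83 and 7.45) than the region 6.14 kb downstream of Cebpe. In the less strict lists a peak 2.10 kb upstream of Cebpe, outside the promoter window, had 4.77 and 5.30. The promoter of Slc7a8, upstream of Cebpe, was likewise called in the less strict but not the thresholded list of each replicate.

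No searched motif was common to most of the 18 distal regions found in both replicates. Within 50 bp of the replicate 1 summit, the CTCF core letters were found in 5 regions, ETS, E-box and GC box letters in 4 each, C/EBP, RUNX and CRE (TGACGT) letters in 2 each, and GATA and MYB letters in 1 each. The AP-1, CCAAT box and TATA box letters were found in none at that summit. Several counts moved with the summit used: at the replicate 2 summit the CTCF core was found in 6 regions, ETS in 5, the E-box in 3, the GC box and AP-1 in 2 each and RUNX in 1, while C/EBP, CRE, GATA, MYB, CCAAT and TATA box counts were the same. Within 100 bp of the replicate 1 summit the CTCF core, ETS and E-box letters were found in 7 regions each. RUNX and GC box letters were found in 5 each, and C/EBP, MYB and AP-1 letters in 3 each. Within 100 bp of all shared distal summits, 22.1% held the CTCF core, 38.4% ETS and 48.5% E-box letters. At that reach 32.6% held RUNX, 11.5% GC box, 9.63% C/EBP, 27.4% MYB and 10.5% AP-1 letters. Within 50 bp of all shared distal summits the shares were 6.05% for AP-1, 14.6% for the CTCF core and 26.6% for ETS. They were 29.5% for the E-box, 7.36% for the GC box, 4.64% for C/EBP and 21.9% for RUNX. For CRE, GATA, MYB, the CCAAT box and the TATA box they were 2.39%, 3.91%, 14.5%, 10.5% and 2.54%. The 5 regions with CTCF core letters at the replicate 1 summit were 2 in the Cebpa and Cebpg window and 3 around Cebpb. Every 31 bases centred on the 62 thresholded summits of the family occurred 1 time in the genome.

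The genes whose promoter and distal values were most like each member were found by the Euclidean distance over 4 values, the promoter percentile and the distal count in each replicate, with the counts brought to the spread of the percentiles. Capn2 and Gsn were nearest to Cebpa, with the same distal counts of 6 and 5 and promoter percentiles of 28.8 and 32.1 for Capn2. Elovl6 and Palld were nearest to Cebpg. Hpn and Klrb1c were nearest to Cebpb, each with no promoter peak and 12 distal peaks in either replicate. Syt7 and C8g were nearest to Cebpd. Their promoter value in replicate 2 was 0, as given to genes without a peak, while that of Cebpd was 1.82. Cebpe had the same 4 values as 339 other genes.

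Genes of known C/EBP partners and brakes were read the same way, with zipper partners and the Tribbles genes. Of these 11 genes, 6 were open in the thresholded lists, 2 had a promoter peak in replicate 1 only and 3 had none, against 41.3% of all genes open, and 10 were open in the less strict lists, against 58.0%. Atf5 (12.02 and 12.2) and Atf4 (10.8 and 12.05), stress-response factors, had the strongest peaks. Ddit3, the gene of CHOP, had 8.46 and 7.44, Fos had 5.74 and 6.99 and Jun had 4.78 and 5.45, so these 3 lay lower. Of the Tribbles genes, Trib3 was open (7.23 and 8.0) and Trib2 had a peak in replicate 1 only (5.91). Trib1 had none at this threshold, but 7 distal peaks. The proteins of Trib1 and Trib2 bring C/EBPα to degradation.

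Factors known to bind the Cebpa enhancer were open at 5 of 10 promoters and had a median of 2.5 distal peaks. Ets1 (9.65 and 8.08), Lmo2 (6.84 and 9.63), Meis1 (7.25 and 7.67), Spi1 and Runx1 were open. Tal1 (5.32) and Erg (6.70) had a promoter peak in replicate 1 only, and Gata2, Fli1 and Myb in neither. Fli1 and Runx1 had 9 distal peaks each and Gata2 had 6, so Cebpb with 10 exceeded every gene of this list. In the less strict lists the order turned, with 15 for Cebpb and 18 for Fli1. The 5 of 10 open promoters stood beside 41.3% of all genes, and in the less strict lists 8 of 10 stood beside 58.0%.

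Myeloid genes that C/EBP proteins are known to activate were open at 4 of 18 promoters, and 11 of 18 in the less strict lists. Klf5, a Krüppel-like factor gene, had the strongest, with 17.2 and 18.3, at the 99.3 and 99.4 percentiles. Irf8 (7.24 and 8.83), Csf2rb (7.16 and 8.10) and Il6ra (6.67 and 6.95), a monocyte regulator and a pair of cytokine receptor genes, were the other open ones. Lyz2 had a peak in replicate 2 only (7.32) and Mmp8 in replicate 1 only (7.30), and 12 genes had none, such as Csf3r, the G-CSF receptor gene, Mpo and Elane. Csf1r, Elane, Prtn3 and Ctsg had none in the less strict lists either. Of 4 genes reported to rise in Cebpa-deficient stem cells, Mycn (6.53 and 7.62) and Sox4 (9.68 and 10.3) were open, Bmi1 had a peak in replicate 2 only (7.49) and Hoxa9 in neither. Over these 4 lists, 17 of 43 genes were open, against 41.3% of all genes. In the less strict lists 33 of the 43 were open, against 58.0%.

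**Figure D5:**
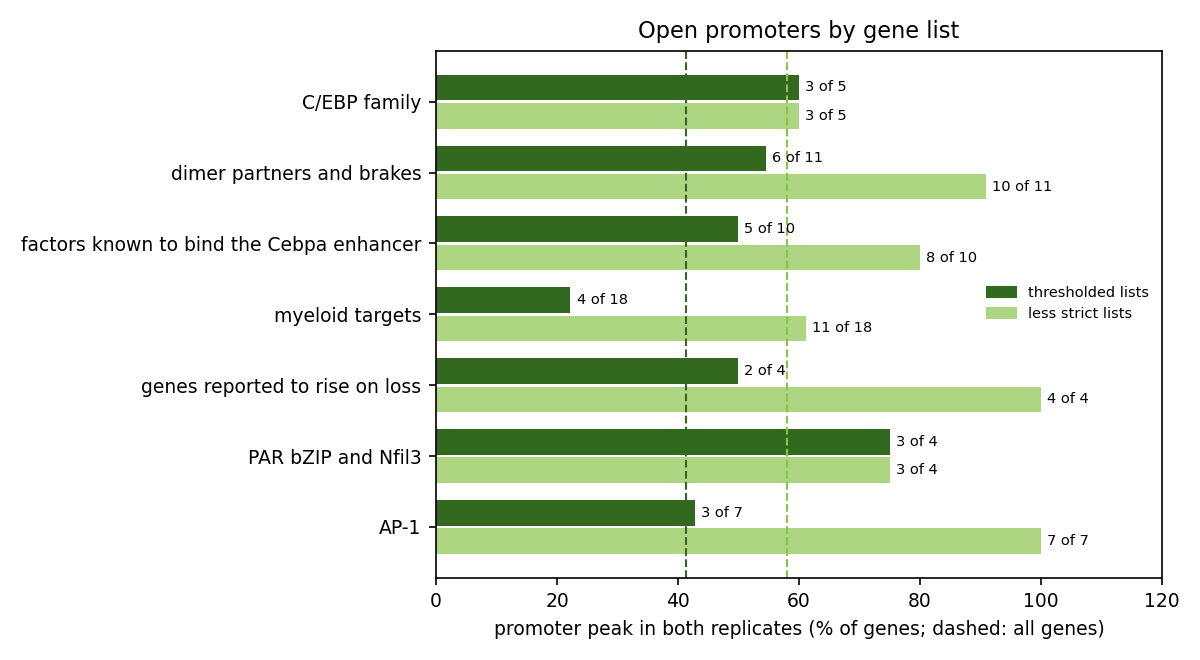
Percent of genes with a promoter peak in both replicates for the C/EBP family and the gene lists set beside it, in the thresholded and the less strict lists; labels give the counts and dashed lines the share of all protein-coding genes (41.3% and 58.0%). The family stands at 3 of 5 in both kinds of list, while myeloid targets stand at 4 of 18 in the thresholded and 11 of 18 in the less strict lists.

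Other basic leucine zipper families were set beside the C/EBP genes for their values alone. Of the PAR family with Nfil3, 3 of 4 promoters were open, Tef (10.7 and 13.5), Dbp (8.35 and 7.86) and Hlf (7.15 and 5.52), and Nfil3 had none. Of 7 AP-1 genes, Fos, Jun and Junb were open in the thresholded lists, and all 7 in the less strict ones. Of all protein-coding genes, 41.3% were open in the thresholded and 58.0% in the less strict lists. The distal counts of the genes in these 2 families ran up to 5, at Fos, so that Cebpb had 10 against at most 5 in either family. The gap was smaller in the less strict lists, with 15 for Cebpb, 13 for Fos and 10 each for Dbp and Fosb, and in replicate 1 alone, with 12 for Cebpb and 10 for Fosb.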

How the data were processed

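ATAC-seq peak lists in mm10 of 2 libraries were used as deposited, with the series-level lists for alternatives. Aligner, peak caller, treatment of read ends and removal of mitochondrial reads were not given in the sources used here. Per the file headers and values, each deposited list gives a signal value per peak, assigned by the authors' caller, and −log10 values of p and q per peak, which entered no test. The deposited ranked lists also give a −log10 IDR, and the lowest in the thresholded lists was 1.30. HiSeq and NextSeq instruments are both named for replicate 1 and no instrument for replicate 2, so instrument and replicate cannot be told apart.

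Intervals listed once per summit (34499 lines in replicate 1 and 34174 in replicate 2) were counted once at the strongest summit. Peaks overlapping by at least 1 bp were taken as the same. Genes were the 21853 protein-coding genes of GENCODE M21, and signed distances run from the nearest start of the gene. Motif letters were searched on both strands in windows around summits. Python 3.11.15 and numpy 2.4.6 were used, and peak assignment and motif search were tested on simulated data. There is 1 group, so no test between conditions was made, and no p-value is given. Every C/EBP peak in the thresholded lists was eligible to be named. From the less strict lists, promoter peaks and up to 5 distal peaks per gene of the highest mean percentile, a replicate without the peak counting as 0, were eligible, and so were neighbours and listed genes. The members and gene lists were chosen with earlier results of these data known. Alternatives were the less strict and series-level lists, promoters of 500 or 2000 bp, the most 5′ start alone, a 50 kb window, a reciprocal overlap of 50%, the strongest 50% of peaks, every summit counted and each replicate alone, and for motif letters the replicate 2 summit and a window reaching 100 bp either side.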

Additional observations from a re-analysis of the deposited data

How the results depend on the processing

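The same 3 promoters, of Cebpa, Cebpg and Cebpd, were open in the less strict lists, both series-level lists, with promoters of 500 or 2000 bp, with the most 5′ start alone and in each replicate alone. With the strongest 50% of peaks the count was 1. Of the 43 listed partner and target genes 17 were open, against 41.3% of all genes. With the narrower and wider promoters 17 and 18 were open, against 40.0% and 42.9% of all genes. In a single replicate the number was 19 to 22, against 44.1% to 46.0% of all genes. In the less strict lists it was 33, against 58.0%, so the listed genes together stood above the share of all genes there, with the myeloid targets at 11 of 18. The lists were chosen with earlier results of these data known, and the difference was not tested. The distal counts summed to 22 over the 5 genes, with 25 to 27 in a single replicate, 22 at a reciprocal overlap of 50% and 32 with every summit counted. They summed to 44 in the less strict lists and to 35 and 42 in the series-level thresholded and conservative lists. Within 50 kb they summed to 12, and with the strongest 50% of peaks to 3. The mean over all genes was 1.36 in the main lists, 4.52 in the less strict and 3.07 and 3.91 in the series-level lists. It was 1.87 to 1.90 in a single replicate, 1.32 at a reciprocal overlap of 50% and 1.75 with every summit counted. Within 50 kb the mean was 0.717. With the strongest 50% of peaks it was 0.528, while Cebpa, Cebpb and Cebpg had 1 each and Cebpd and Cebpe 0. The longer lists and the wider window hold more peaks by construction. Cebpb had the highest count of the family, or tied for it, in each of these settings. No paired analysis was possible because there is a single group. Without read counts, a promoter with no peak called, such as that of Cebpb in replicate 2, could not be told from a weak one under the calling limit. The number of the 18 regions with RUNX letters was 2, and it was 1 at the replicate 2 summit and 5 in the wider window. Over all shared distal peaks 21.9% of windows held RUNX letters, and 32.6% of the wider windows.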
